A study of Mus musculus with 49 samples.

Results

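Lungs of 3 tumor-bearing mice that had received PBS only were compared with the tumor, lymph node, spleen, liver and bone marrow of the same 3 mice. These are 3 lung libraries and 15 libraries of other organs, out of 49 RNA-sequencing libraries in all. All animals were HuHER2 transgenic mice, which carry human HER2 (the receptor tyrosine kinase ERBB2 of many breast cancers), and were age-matched, with palpation for mammary tumors from an age of 7 months. Once a tumor was found, each mouse received 1 intravenous injection of PBS (the untreated group) or of BP, an iron oxide nanoparticle preparation known here by its code name, at 5 mg Fe per mouse. The organs were collected after 7 days per the study's design text, while a treatment label names 31 days. RNA came from whole (bulk) tissue, so a lung library holds every cell type of the organ. There was no lung of a tumor-free mouse in these data, and the labels do not name the promoter that drives the transgene. BP lungs enter only the comparisons that name them. The labels name no litter or date, and each number marks 1 mouse across its organs.

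The lung exchanges gas across alveoli lined by flat type 1 cells and by cuboidal type 2 cells, which secrete surfactant and store its lipid in lamellar bodies. The airways above them are lined by secretory club cells and by ciliated cells that move mucus, and the alveoli are wrapped in a dense capillary bed. NKX2-1 is the transcription factor that sets lung epithelial identity, and RFX factors with FOXJ1 switch on the genes of motile cilia.

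Promoters of genes that mark lung are shown to let a reader look at the DNA in front of them. Only promoters with a match to the marked motif are shown, and most promoters of the type 2 and ciliated lists have none (shares below). The stretches hold the 250 bases before the start of the RefSeq transcript (GRCm38.p6), written 5′ to 3′ on the strand of the gene. Capitals mark CTCAAG, the core bound by NKX2-1, in the first pair of sequences and GTTGCC, a core of the RFX motif, or its reverse complement GGCAAC in the other three.
Sftpb (chr6:72304360-72304609, plus strand): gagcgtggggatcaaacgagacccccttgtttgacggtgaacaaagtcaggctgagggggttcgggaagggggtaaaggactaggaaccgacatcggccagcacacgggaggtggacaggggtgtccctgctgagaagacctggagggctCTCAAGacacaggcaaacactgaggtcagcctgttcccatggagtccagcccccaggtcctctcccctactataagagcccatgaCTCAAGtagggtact
Sftpa1 (chr14:41131538-41131787, plus strand): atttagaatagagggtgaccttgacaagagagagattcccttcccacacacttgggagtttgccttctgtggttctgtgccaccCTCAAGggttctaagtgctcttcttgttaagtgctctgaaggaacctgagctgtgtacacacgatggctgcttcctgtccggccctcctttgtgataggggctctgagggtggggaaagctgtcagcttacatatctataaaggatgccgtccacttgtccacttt
Ccdc153 (chr9:44240427-44240676, plus strand): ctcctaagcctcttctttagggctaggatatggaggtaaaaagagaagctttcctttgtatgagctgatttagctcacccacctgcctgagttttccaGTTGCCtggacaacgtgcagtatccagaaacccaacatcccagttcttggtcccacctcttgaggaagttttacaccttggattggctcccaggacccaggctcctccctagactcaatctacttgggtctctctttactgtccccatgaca
Drc1 (chr5:30281143-30281392, plus strand): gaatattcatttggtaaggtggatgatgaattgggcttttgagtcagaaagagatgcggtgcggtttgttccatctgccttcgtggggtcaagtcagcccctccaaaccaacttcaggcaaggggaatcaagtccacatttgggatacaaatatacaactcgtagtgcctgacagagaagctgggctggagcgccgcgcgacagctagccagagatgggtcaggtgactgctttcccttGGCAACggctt
Fam183b (chr11:58801961-58802210, minus strand): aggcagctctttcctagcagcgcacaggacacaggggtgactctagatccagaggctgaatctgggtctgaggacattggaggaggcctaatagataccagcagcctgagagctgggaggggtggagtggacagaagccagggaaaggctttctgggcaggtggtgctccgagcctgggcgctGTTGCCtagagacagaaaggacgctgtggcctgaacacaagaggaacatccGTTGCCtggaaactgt
Sftpb and Sftpa1 encode surfactant proteins of type 2 cells. CTCAAG began at positions -100 and -15 from the start of Sftpb and at -166 from that of Sftpa1. Ccdc153, Drc1 and Fam183b encode proteins of cilia. GTTGCC or its complement began at -152, at -11, and at -67 and -16 in front of these 3 genes.

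CTCAAG on either strand was found in 13.3% of 32851 promoters of all genes. It stood in 12.2% of the 1266 promoters of genes that mark lung (986 genes matched the promoter table), in 21.4% of the 14 promoters of the type 2 list, in 12.5% of the 16 of the type 1 list, in 30.8% of the 13 of the club cell list and in 20.8% of the 24 of the ciliated list. GTTGCC on either strand was found in 10.4% of all promoters, in 14.7% of those of genes that mark lung, and in 7.14, 18.8, 0 and 41.7% of those of the same 4 lists. So CTCAAG was not limited to alveolar and club cell lists, nor GTTGCC to the ciliated list, and each list holds few promoters. Neither motif contains the other. A match says only that the letters are present.

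The PBS lung libraries held 10276385 to 19734849 expected counts and the 15 other libraries 10102772 to 15161776. Levels are in CPM, counts relative to the scaled library total. Where a gene is listed at 0, its true level can still reach what 3 counts are worth on the same scale, from 0.118 CPM in lung 1 to 0.479 CPM in liver 1, and this limit covers counting error only. Lungs differed from each other by a mean distance of 2.8 on the log2 scale (root mean square log2 difference over the most different genes of each pair) and from other organs by 6.09 (lymph node) to 8.09 (liver). Lung of PBS mouse 1 stood apart in erythroid, neutrophil, natural killer and macrophage transcripts. Lung of PBS mouse 2 stood apart in some of the transcripts that were high in the tumor. Tumor of PBS mouse 1 lay at 4.93 and 4.68 from the other tumors, which were 3.30 from each other. Each is described below, with the results without it. Marker lists followed the labels: hepatocyte genes summed to at least 253000 CPM in liver and at most 32910 elsewhere, T cell genes were highest in lymph node (1699 to 2842 CPM), B and plasma cell genes in spleen (6482 to 8221 CPM), erythroid genes in bone marrow (154600 to 175000 CPM) and mammary genes in tumor (15350 to 62520 CPM).

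A gene was said to mark lung when it was higher in lung than in each of the 5 organs separately, with an adjusted p under 0.05 in all 5 contrasts (edgeR's quasi-likelihood F-test with the mouse as block, Benjamini-Hochberg adjustment). Of 17696 genes tested, 1375 (7.77%) marked lung, and 1303 of these had all 3 lungs above all 15 other libraries, as had 9.12% of all genes tested. The number was 1146 without lung 1 (1103 shared), 1326 without lung 2 (1231 shared), 1547 without tumor 1 (1318 shared) and 847 without mouse 3 (838 shared). Against the mean of the 5 organs 5227 genes (29.5%) were higher and 4087 (23.1%) lower in lung. In single contrasts 41.5% of genes were called against lymph node, 49.1% against tumor, 53.4% against spleen, 61.3% against bone marrow and 61.4% against liver. Genes higher in lung made up 22.1, 25.5, 28.4, 33.3 and 35.0% in the same order. Without mouse 3 the calls against the mean, tumor, lymph node and spleen numbered 6505, 5393, 4279 and 6013.

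The 1375 genes held 17.4 to 20.7% of all counts in the lungs and 0.779 to 2.28% in the other libraries. The median gap to the next highest organ was 2.48 on the log2 CPM scale, against -1.04 over all genes tested. Since the 1375 genes were chosen for a higher level in lung, a positive gap and a larger share of lung counts follow from that choice. A gap of at least 2 was seen for 62.2% of them and a gap of at least 5 for 151 genes. The next organ was lymph node for 401 genes, tumor for 336, spleen for 255, liver for 230 and bone marrow for 153. Of the 1375, 1277 (92.9%) were protein coding, against 86.6% of all genes tested. In bulk tissue fewer cells of a type and less RNA per cell cannot be told apart.

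The 14 genes with the widest gap, among those that marked lung with at least 10 CPM and no overlap, were Sftpb, Scgb3a2, Scgb1a1, Sftpa1, Sftpc, Sec14l3, Ager, Cldn18, Chia1, Sfta3-ps, Nkx2-1, Ccdc153, Lgi3 and Lamp3. They belong to secretory airway cells, both alveolar cell types and cilia, with the lung's identity factor among them. Members of the lists below are named by rank in their list, and others, such as Sftpd, Scgb3a1, Drc1 and Fam183b, were chosen after their values had been seen.

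**Figure D1:**
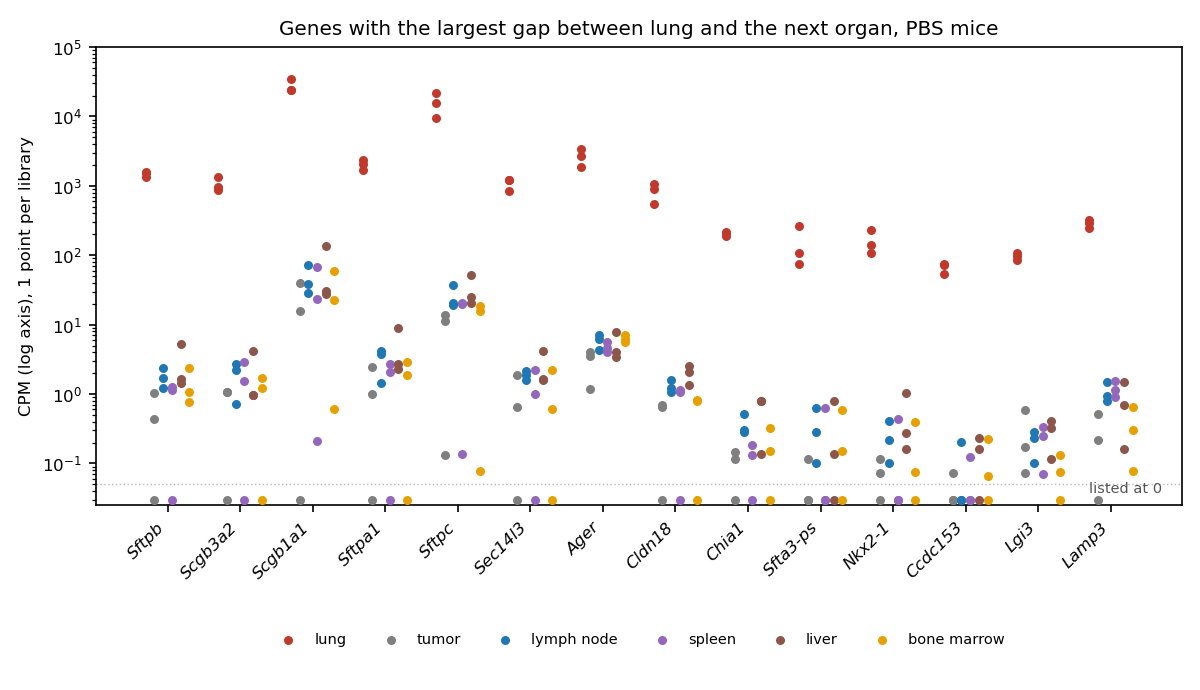
CPM on a log axis of the 14 genes with the widest gap between lung and the next organ in PBS mice, with 1 point per library and color for the organ. All 3 lungs sit above all 15 other libraries for each gene, and points under the dotted line are listed at 0.

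Alveolar type 2 genes had the largest median difference of the 39 lists. All 17 tested members of their list were higher in lung than the mean of the other organs, and 13 marked lung, with a median log2 difference of 8.72 to the mean (over all genes -0.03). Sftpc (ENSMUSG00000022097, chromosome 14, 70520949 to 70524081), surfactant protein C, stood at 9573, 22010 and 15530 CPM in lungs 1 to 3 and at 0.0769 to 51.7 CPM elsewhere. The lungs did not overlap with any other organ, and lung 1 was the lowest of them (log2 difference to the mean of the organs 10.29 ± 0.74 SE, adjusted p = 3.1e-08 by edgeR). Sftpb (ENSMUSG00000056370, chromosome 6, 72304610 to 72314371), surfactant protein B, stood at 1506, 1329 and 1600 CPM in the lungs and at most at 5.30 CPM elsewhere. Its 3 lung values lay closer together than those of Sftpc, and its mean was 529-fold that of liver, the next organ. Sftpa1, surfactant protein A, stood at 1701, 2366 and 2052 CPM, with 8.87 CPM as the highest value elsewhere.

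Lamp3, a membrane protein of lamellar bodies, had 249.2, 323.3 and 293.3 CPM in the lungs and at most 1.56 CPM elsewhere. Slc34a2, the phosphate transporter of type 2 cells, had 876.6, 771.8 and 816.9 CPM, and its highest other value was 35.8 CPM in tumor 2. Sftpd, surfactant protein D, had 428.5, 723.3 and 524.5 CPM, but tumor 1 held 140.0 CPM of it, and its call was lost without mouse 3. Abca3, Napsa, Etv5 and Ctsh, which transport lipid, process surfactant proteins or regulate type 2 cells, did not mark lung. Abca3, the lipid pump of lamellar bodies, had 280.6, 132.7 and 267.2 CPM in lung and up to 557.3 CPM in liver. The related list of surfactant lipid genes had 7 of 23 members that marked lung (median 0.96), and enzymes of general fat synthesis were among those that did not. Scd1, which desaturates fatty acids, reached 11530 CPM in lymph node 3 against 319.6 to 789.8 CPM in lung.

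Type 1 cells line most of the alveolar surface. Of 14 tested members all were higher than the mean of the organs and 12 marked lung (median 7.10). Ager (ENSMUSG00000015452, chromosome 17, 34597862 to 34600936), the receptor for glycation products that covers type 1 cells, stood at 1856, 3444 and 2693 CPM in lungs 1 to 3 and at 1.19 to 7.95 CPM elsewhere (log2 difference 9.08 ± 0.25, adjusted p = 4.88e-12 by edgeR). Cldn18, a tight junction protein, had 542.1, 1065 and 897.5 CPM and at most 2.54 CPM elsewhere. Hopx, a homeodomain cofactor, had 591.1, 1223 and 893.4 CPM and up to 67.1 CPM in liver 2. In each of these 3 genes lung 1 was lowest and lung 2 highest. Aqp5, the water channel, did not mark lung: it had 232.0, 517.8 and 319.3 CPM in lung and 3795 CPM in tumor 3. Igfbp2, a growth factor binding protein, was not called against liver, where it reached 448.8 CPM against 535.8 to 1110 CPM in lung.

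Club cell genes included the most abundant transcript of the lung. Scgb1a1 (ENSMUSG00000024653, chromosome 19, 9083636 to 9087958), the secretoglobin of club cells, stood at 34870, 23810 and 23620 CPM in lungs 1 to 3 and at 0 to 137.1 CPM elsewhere, highest in liver 3 (log2 difference 10.44 ± 1.01, adjusted p = 7.41e-07 by edgeR). Per kilobase of exon its mean level of 57630 CPM was the highest of all genes in lung, ahead of the hemoglobin genes Hba-a1 (17790) and Hbb-bs (15900), of Sftpc (15190) and of mt-Co1, a mitochondrial enzyme subunit (6484). Of 13 club cell genes tested 13 were higher than the mean and 8 marked lung (median 7.64). Scgb3a2, a relative of Scgb1a1, had 951.5, 1351 and 856.5 CPM in lung and at most 4.15 CPM elsewhere. Cbr2, a carbonyl reductase, had 4198, 3345 and 3303 CPM and at most 27.7 CPM elsewhere.

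Secretory genes of the upper airway varied more. Scgb3a1 stood at 5.92, 91.3 and 90.4 CPM in lungs 1 to 3, Bpifb1 at 4.26, 31.2 and 58.7 CPM, and both at no more than 0.331 CPM elsewhere. Lung 1 was the lowest for both while it was the highest for Scgb1a1. Bpifa1, a secreted airway defense protein, stood at 0.276, 10.8 and 111.2 CPM, did not pass the filter on low counts and was listed at 0 in all 15 other libraries. Cyp2f2, the cytochrome P450 of club cells, had 2773, 1075 and 1907 CPM in lung and up to 956.5 CPM in liver (adjusted p = 0.0308 against liver by edgeR), and its call against each organ was lost without lung 1, lung 3 or mouse 3. Aldh1a1, Reg3g, Gp2, Cldn10 and Pon1 did not mark lung, and Pon1, a serum esterase, reached 1577 CPM in liver.

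Ciliated cell genes had the largest share of members that marked lung, 22 of 23 tested (median 7.95). Ccdc153 stood at 75.3, 71.1 and 53.4 CPM in lungs 1 to 3 and was listed at 0 in 8 of the 15 other libraries, with 0.230 CPM as the highest value. Foxj1, the master regulator of motile cilia, had 126.7, 39.9 and 78.5 CPM and up to 11.3 CPM in tumor 1. Dnah5, a dynein motor chain, had 65.4, 13.8 and 30.9 CPM and at most 0.231 CPM elsewhere. Lung 1 was highest and lung 2 lowest for Foxj1 and Dnah5. Tppp3, a tubulin binding protein, went the other way with 464.2, 708.6 and 541.9 CPM. The cilia genes with a promoter above, Drc1 and Fam183b, had at least 13.9 and 20.6 CPM in lung against at most 3.99 and 0.230 CPM elsewhere. Rfx3, a factor that many ciliated and unciliated cells share, had 17.7, 4.97 and 7.85 CPM against 2.87 to 12.7 CPM elsewhere (log2 difference 0.44 ± 0.27, adjusted p = 0.189 by edgeR, 0.77 with adjusted p = 0.0494 without lung 2). Markers of basal and neuroendocrine cells were near 0, and 0 of 6 tested marked lung (median 1.12). Krt5, the basal cell keratin, was listed at 0 in lungs 1 and 2 and had 1.00 CPM in lung 3.

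**Figure D2:**
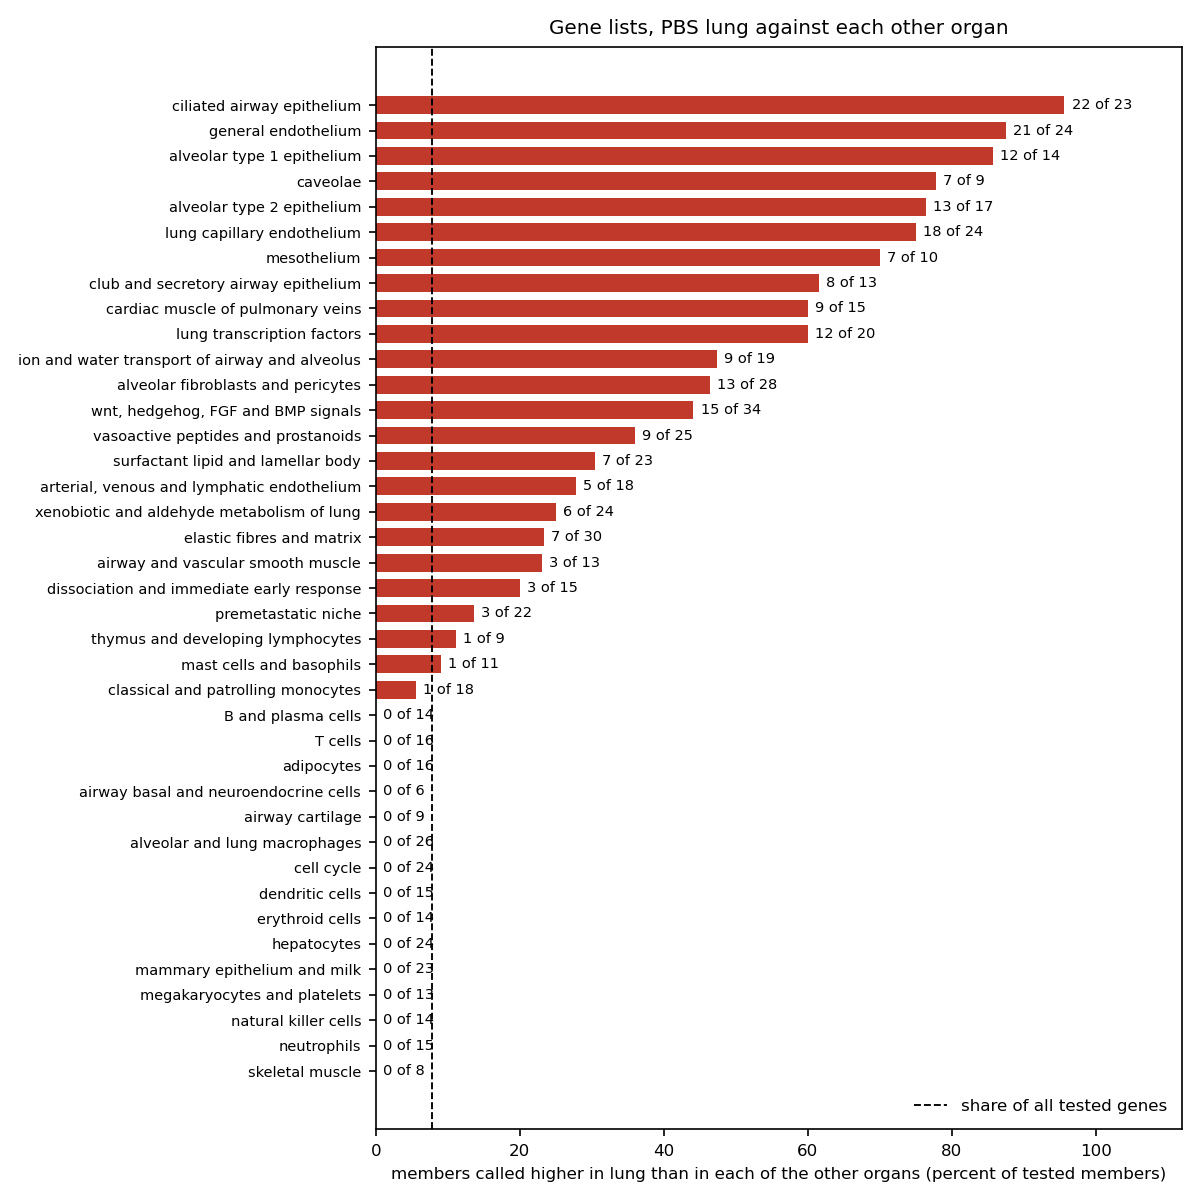
Percent of the tested members of each of 39 gene lists that were called higher in PBS lung than in each of the 5 other organs, with the count beside each bar. The dashed line marks 7.77%, the share over all genes tested, and the ciliated list has the longest bar (22 of 23).

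Factors of lung identity and lung mesenchyme marked the organ. Nkx2-1 (ENSMUSG00000001496, chromosome 12, 56531958 to 56536908) stood at 234.1, 107.2 and 140.3 CPM in lungs 1 to 3 and at 0 to 1.04 CPM elsewhere (adjusted p = 1.61e-10 by edgeR, with 4 of the 15 listed at 0). Its neighbor Sfta3-ps, on the same strand of chromosome 12 between 56488321 and 56529427, followed the same order with 259.8, 75.8 and 107.2 CPM. Foxf1, a factor of lung mesenchyme and capillaries, had 117.6, 100.8 and 168.4 CPM and at most 5.88 CPM elsewhere, and Tbx4 had 38.6, 19.1 and 27.0 CPM and at most 0.461 CPM. Of 20 lung factors 12 marked lung and 18 were higher than the mean (median 5.99). Foxa1, Foxa2, Foxp2, Sox9, Elf3, Meox2, Cebpa and Elf5 did not mark lung, and Cebpa, a factor shared with liver and myeloid cells, reached 958.9 CPM in liver against 97.8 to 114.9 CPM in lung.

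Endothelial genes followed the same pattern with smaller differences. Of 24 general endothelial genes 21 marked lung and 23 were higher than the mean (median 3.71). Cldn5, a tight junction protein of endothelium, stood at 274.9, 570.6 and 597.1 CPM in the lungs and at 0.570 to 38.0 CPM elsewhere. Calcrl, a receptor of adrenomedullin, had 469.6, 442.3 and 574.2 CPM and at most 39.6 CPM elsewhere. Pecam1, the junction molecule CD31, had 289.2, 295.5 and 517.4 CPM and up to 190.0 CPM in lymph node 1. The count fell from 21 to 13 without mouse 3, with Pecam1, Eng and Kdr among the 8 that lost the call. Nos3, Tal1 and Mmrn2 did not mark lung, and Tal1, shared with blood precursors, reached 282.1 CPM in bone marrow.

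The genes of lung capillaries gave wider gaps. Of 24 members 18 marked lung and 24 were higher than the mean (median 4.26). Tmem100, a capillary membrane protein, had 137.1, 172.4 and 256.2 CPM in lung and at most 3.24 CPM elsewhere (log2 difference 8.74, adjusted p = 1.18e-11 by edgeR). Car4, a carbonic anhydrase that marks large alveolar capillary cells, had 56.5, 166.1 and 165.5 CPM and at most 10.5 CPM elsewhere. Ace, which makes angiotensin II, had 516.1, 391.2 and 670.3 CPM and up to 124.2 CPM in tumor 1. Lung 3 was highest for Tmem100 and Ace, and lung 1 was lowest for Tmem100 and Car4. Ednrb, Apln, Fibin, Chst1, Hpgd and Kit did not mark lung. Kit had 66.2 to 86.2 CPM in lung and 683.5 CPM in tumor 3.

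Caveolae, the membrane pits of endothelium and type 1 cells, were represented by 9 tested genes, of which 7 marked lung (median 3.83). Cav1, their scaffold, had 860.2, 834.0 and 1048 CPM in lung, and lymph node 2 came next with 280.4 CPM. Of 18 markers of larger vessels and lymphatics 5 marked lung (median 2.45). Slc6a2, a noradrenaline transporter of lung veins, had 32.3, 14.1 and 24.3 CPM and at most 3.88 CPM elsewhere. Ccl21a, a lymphatic chemokine, had 66.1, 89.7 and 104.9 CPM against 452.9 CPM in lymph node 1, and Stab2 of liver sinusoids was at 0.237 to 0.784 CPM against 93.2 CPM in liver 1. Of 25 genes of vasoactive peptides and prostanoids 9 marked lung (median 2.38), among them Edn1 (endothelin 1), Ptgis (prostacyclin synthase), Ramp2 and Npr1. Ptgis had 87.8, 97.7 and 84.8 CPM in lung and at most 11.2 CPM elsewhere. Agt, the angiotensin precursor made by liver, was at 3.04 to 5.49 CPM in lung and 1149 CPM in liver 1.

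Stromal genes were divided. Of 28 genes of alveolar fibroblasts and pericytes 13 marked lung and 25 were higher than the mean (median 3.62). Inmt, a methyltransferase of lung fibroblasts, stood at 2484, 2970 and 2079 CPM in lung, with liver 1 next at 825.2 CPM. Limch1, an actin regulator, had 626.0, 634.1 and 604.4 CPM and at most 36.2 CPM elsewhere. Gpc3, a surface proteoglycan, had 332.9, 243.7 and 277.6 CPM and at most 14.4 CPM elsewhere. Ces1d and Adh1, which liver shares, did not mark lung.

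Of 30 genes of elastic fibres and matrix 25 were higher than the mean but 7 marked lung (median 2.57). Eln, elastin, had 120.0, 103.3 and 116.0 CPM in lung and up to 74.6 CPM in tumor 2, and its call against each organ was lost without lung 1, lung 3 or mouse 3. Ltbp4, which loads elastic fibres with latent TGF-beta, had 412.4, 166.0 and 293.7 CPM and at most 54.3 CPM elsewhere. Col3a1, a fibrillar collagen, had 184.6 to 298.4 CPM in lung and 1237 CPM in lymph node 3. In smooth muscle 3 of 13 genes marked lung (Des, Hhip and Pln, list median 3.04), and 1 did without mouse 3, without lung 3 or without spleen 1 or 3. Mesothelial genes, of the pleura in lung, marked it for 7 of 10 (median 6.47). Msln, mesothelin, had 237.3, 234.8 and 196.6 CPM, with spleen 2 next at 41.5 CPM.

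Heart muscle genes were present in all 3 lungs. Mouse pulmonary veins carry a sleeve of cardiac muscle. The source of these transcripts was not tested. Of 15 tested genes 9 marked lung (median 5.52). Myh6, the atrial myosin heavy chain, had 13.9, 25.02 and 71.6 CPM and at most 0.216 CPM elsewhere, and Actc1, cardiac actin, had 38.7, 24.3 and 56.6 CPM and at most 0.312 CPM. The summed level of the list was 106.5, 264.8 and 516.4 CPM in lungs 1 to 3. Nppa, Nppb and Myl2 of the heart chambers did not pass the filter on low counts. Cartilage genes did not mark lung (0 of 9, median 0.70).

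Ion and fluid transport genes of the airway marked lung for 9 of 19 (median 5.27). The 3 subunits of the epithelial sodium channel, which clears alveolar fluid, all did. Scnn1g had 144.3, 146.7 and 146.4 CPM and at most 5.53 CPM elsewhere, Scnn1b had 121.9, 82.5 and 84.5 CPM and at most 23.8 CPM, and Scnn1a had 339.3, 167.8 and 284.8 CPM and at most 59.2 CPM. The chloride channel gene Cftr had 25.2, 17.9 and 15.2 CPM and at most 0.749 CPM elsewhere. Of 24 genes of xenobiotic metabolism 21 were higher than the mean and 6 marked lung (median 3.61). Their list summed to 8418 to 12930 CPM in lung and 12210 to 13500 CPM in liver. Fmo2, the flavin monooxygenase of lung, had 875.2, 337.4 and 460.1 CPM against at most 58.7 CPM elsewhere.

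Among signals of lung growth and repair 15 of 34 genes marked lung and 32 were higher than the mean (median 3.94). Wnt3a, a Wnt ligand, had 17.0, 20.3 and 16.3 CPM and was listed at 0 in 9 of 15 other libraries, with 0.131 CPM as the highest. Shh, the hedgehog ligand of epithelium, had 19.4, 7.58 and 10.3 CPM and at most 1.64 CPM elsewhere, and its target Gli1 had 7.46, 2.96 and 4.85 CPM and at most 1.44 CPM. The call of Gli1 was lost without lung 1, lung 3 or mouse 3. Bmp4, a bone morphogenetic protein, had 87.4, 52.6 and 79.8 CPM and at most 5.65 CPM elsewhere. Vegfa, the growth factor of endothelium that type 1 cells make in lung, had 1128, 452.6 and 668.5 CPM, with liver 1 next at 184.6 CPM. Lung 1 was the highest for Shh, Gli1, Bmp4 and Vegfa.

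The premetastatic niche list holds factors that prepare lung for tumor cells in published models. Of its 22 tested genes 3 marked lung, which were Vegfa, Angpt2 and Bdnf (list median 0.19). Over all genes tested the share was 7.77%, and whether 3 of 22 exceeds it was not tested. Bdnf, a neurotrophin, had 38.4, 46.1 and 43.0 CPM and at most 2.59 CPM elsewhere. S100a8 and S100a9, the calcium binding proteins of neutrophils, stood at 6.31, 124.1 and 39.6 CPM and at 11.7, 192.6 and 53.1 CPM in lungs 1 to 3, within the range of the other organs and far under bone marrow 1 (8033 and 12370 CPM). Their difference to the mean was not called (adjusted p = 0.461 and 0.458 by edgeR). Fn1, fibronectin, had 105.9 to 150.8 CPM against 3447 CPM in liver 1. The design holds no lung of a mouse without a tumor, so these levels cannot be set against a lung without a tumor elsewhere.

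Alveolar macrophage genes were higher in lung than in the mean of the organs for 17 of 26 (median 1.79), but 0 marked lung. Chil3, a chitinase-like protein, had 112.9, 693.8 and 461.2 CPM in lung and 2735 CPM in bone marrow 1. Ear2, a ribonuclease, had 46.6, 253.2 and 195.4 CPM and 376.8 CPM in bone marrow 2. Krt79, a keratin that alveolar macrophages express, had 15.2, 67.1 and 46.4 CPM, was listed at 0 in 6 other libraries and reached 24.8 CPM in tumor 1, and its largest adjusted p of the 5 contrasts was 0.113 by edgeR. Lung 1 was the lowest for all 3 genes. Without lung 1 the count that marked lung was 3 of 26 (Abcg1, Atp6v0d2 and Krt79), it was 2 without lymph node 1, and 1 without tumor 1 and without the mouse block.

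The 7.77% of all genes is about 1 gene in a list of this size. In other lists of blood cells the counts that marked lung were 0 or 1, and most were 0, below that share. Whether these lists together fall under it was not tested. The counts were 1 of 18 for monocytes (Ace, shared with capillaries) and 1 of 11 for mast cells and basophils (Gata2, shared with endothelium, lost without lung 3 or mouse 3). They were 0 for T cells (of 16), natural killer cells (14), B and plasma cells (14), neutrophils (15), dendritic cells (15), platelets (13) and erythroid cells (14). The median differences of these lists to the mean ran from -1.25 for erythroid cells to 1.97 for platelets. Against the mean of the organs, which include spleen, lymph node and marrow, 6 T cell, 10 B and plasma cell and 7 neutrophil genes were lower in lung. Tumor 1 stood apart in the neutrophil list, at 21320 CPM against 29.5 and 286.9 CPM in tumors 2 and 3, and without it these counts were 8, 8 and 7. Gzma, a granzyme of cytotoxic lymphocytes, had 3.00, 49.2 and 40.6 CPM in lungs 1 to 3 against 37.9 CPM in spleen 2. Clec9a, of cross-presenting dendritic cells, had 20.99, 13.25 and 19.86 CPM, each above the 13.2 CPM of spleen 1.

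Cell cycle genes were lower in lung than the mean of the organs for 24 of 24 (median -2.56), against 23.1% of all genes, and 0 were lower than in each organ. The list summed to 159.7 to 299.9 CPM in lung, which overlapped liver (151.0 to 482.1 CPM), and to 6767 to 7166 CPM in bone marrow. Mki67, a marker of dividing cells, had 9.86, 21.4 and 17.8 CPM in lung and up to 1720 CPM in bone marrow 1. Hepatocyte genes were lower than the mean, which includes liver, for 22 of 24 (median -1.57). Their sum was 1910 to 2897 CPM in lung and at least 253000 CPM in liver. It was 5353 to 32910 CPM in tumor and 1150 to 3424 CPM in lymph node. Spleen (783.7 to 944 CPM) and bone marrow (1234 to 1427 CPM) lay below lung. Of this list Hp, haptoglobin, was higher in lung than the mean. It had 1030, 820.2 and 831.3 CPM in lung, and of the other organs liver held the most, with up to 5039 CPM (adjusted p = 9.97e-05 by edgeR). Of 16 adipocyte genes, 8 skeletal muscle genes and 9 thymus genes, 0, 0 and 1 marked lung, the last being Tbata, whose call was lost without mouse 3. The medians of these lists were 0.94, 0.57 and -1.32.

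Genes lower in lung than in each of the 5 organs numbered 376 (2.12%), of which 304 had all 3 lungs below all 15 libraries, as had 490 (2.77%) of all genes tested. Those with the widest gap included Bid, Sbk1, Xrcc6, Pdcd4 and Bri3bp. Bid, which links death receptors to mitochondria, stood at 4.26, 9.15 and 6.54 CPM in the lungs and at 16.2 to 91.5 CPM elsewhere (log2 difference -2.60 ± 0.35, adjusted p = 2.21e-05 by edgeR). Xrcc6, the Ku70 subunit of DNA end joining, had 9.59, 13.6 and 9.86 CPM and 22.8 to 65.8 CPM elsewhere. Pdcd4, an inhibitor of translation, had 34.9, 24.7 and 29.6 CPM and 69.8 to 184.8 CPM elsewhere. Sbk1 and Bri3bp had 6.67 to 13.4 CPM and 8.33 to 13.2 CPM in lung. This count was the least stable one: it was 215 without lung 2, 165 without mouse 2, 70 without mouse 3 and 13 when tested against a log2 difference of 1.

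The 3 lungs were not alike in several lists of blood, immune and stress transcripts. Hba-a1, hemoglobin alpha, had 1164, 24790 and 17390 CPM in lungs 1 to 3, and the erythroid list summed to 2344, 49980 and 34280 CPM. The spleen of mouse 1 was also the lowest spleen, at 18460 CPM against 84730 and 111200. The natural killer list summed to 22.2, 140.1 and 132.3 CPM and the macrophage list to 671.9, 2502 and 2100 CPM, so lung 1 was lowest in each. In the list of immediate early and heat shock genes lung 1 was highest, with 2749 CPM against 1093 and 1174, and 3 of 15 genes (Fosb, Jun and Dusp1) marked lung (median 2.41). Fos, an immediate early transcription factor, had 193.6, 20.2 and 16.9 CPM and Hspa1b, a heat shock chaperone with a close copy in Hspa1a, had 282.4, 14.1 and 20.2 CPM. Hspa1b was called higher than the mean (adjusted p = 0.0013 by edgeR), with a log2 difference of 2.41, which was 0.48 without lung 1 (0.201). Hba-a1 was called as well (log2 difference 1.92, adjusted p = 0.00745 by edgeR). The difference was 1.14 without lung 2 (adjusted p = 0.174), 1.75 without lung 3 (0.0666) and 2.56 without lung 1 (0.000267). The part of blood content or handling of the tissue in these differences was not tested.

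The alveolar, club cell and ciliated lists spanned narrower ranges among the lungs than the erythroid, natural killer, macrophage and immediate early lists. Not every blood cell list was that wide: platelet genes summed to 160.5 to 206.7 CPM and mast cell and basophil genes to 165.8 to 192.7 CPM. Type 2 genes summed to 17270, 30330 and 24030 CPM, type 1 genes to 7397, 11670 and 10200 CPM, club cell genes to 44100, 30680 and 31000 CPM and ciliated genes to 1348, 1085 and 1040 CPM. By these sums lung 1 was the lowest in the alveolar lists and the highest in the airway lists. Single abundant genes, such as Sftpc and Scgb1a1, weigh most in the type 2 and club cell sums. Other members went either way: Slc34a2 of the type 2 list was highest in lung 1, and Scgb3a1 and Bpifb1 of the club cell list were lowest there. Among genes with at least 10 CPM in lung, the median coefficient of variation over the 3 lungs was 26.1% for the 929 that marked lung and 19.9% for the 9166 others.

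**Figure D3:**
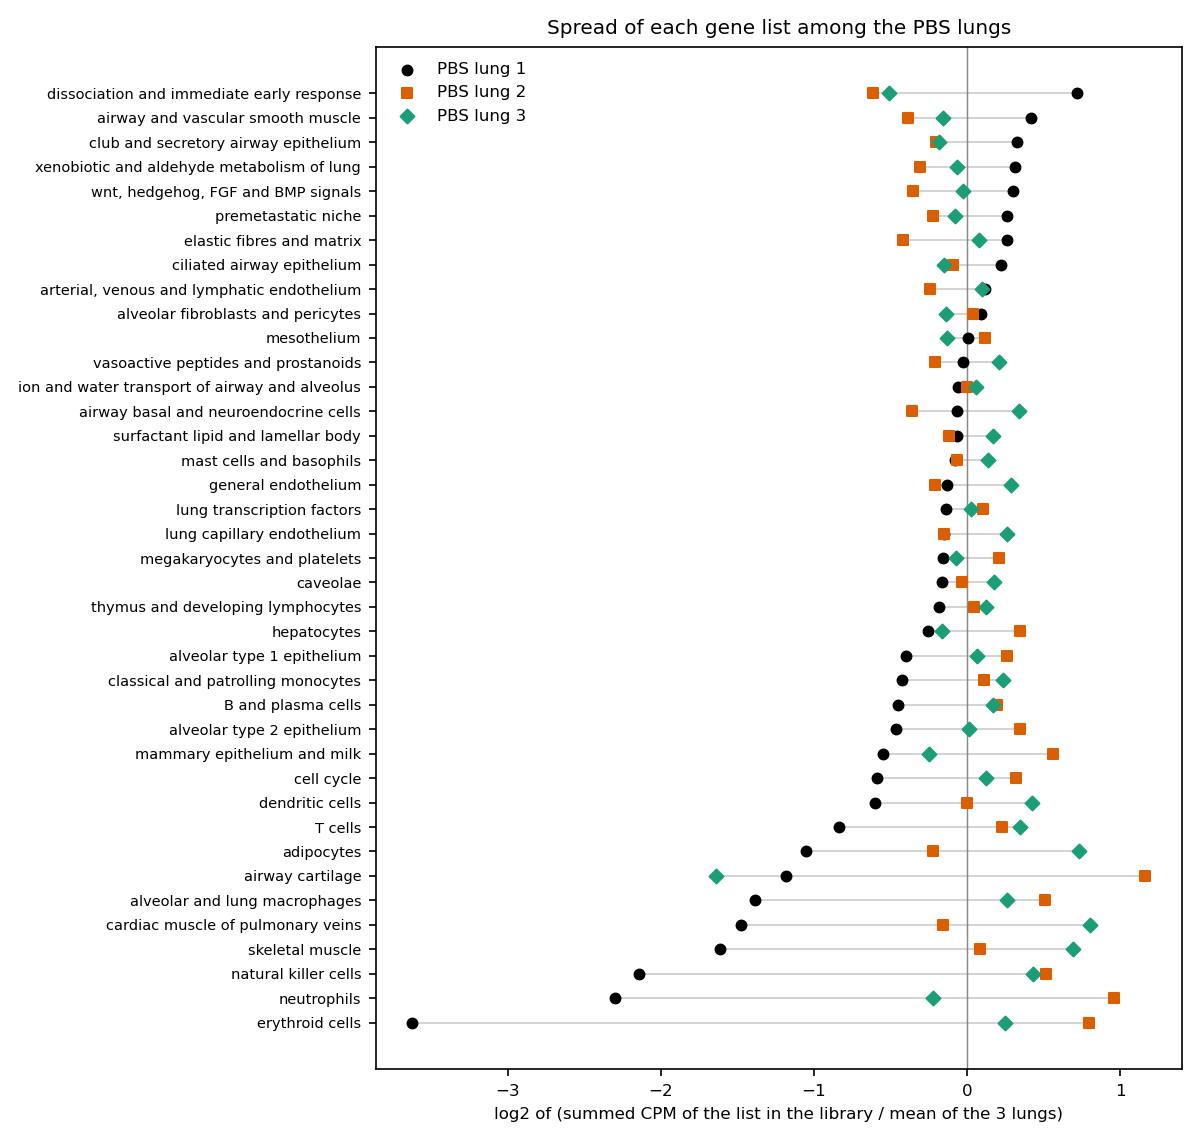
Summed CPM of each of the 39 gene lists in PBS lungs 1, 2 and 3, as log2 of the ratio to the mean of the 3 lungs, ordered by lung 1. Lung 1 lies far below the others for erythroid, neutrophil and natural killer genes and highest for immediate early genes, and lung 2 stands out for cartilage genes.

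Lung 2 held transcripts that were high in the tumor. After the values had been seen, 437 genes were taken that were higher in PBS tumor than in each of lymph node, spleen, liver and bone marrow in a fit without lung, with at least 100 CPM in tumor. Of these, 34 were at least 3 times as high in lung 2 as in both other lungs, and 0 were so in lung 1 or in lung 3. Over all genes with at least 1 CPM in lung (15017), the same excess was seen for 93 in lung 2, 151 in lung 1 and 31 in lung 3. Csn3, kappa casein of milk, stood at 13.4, 333.2 and 31.7 CPM in lungs 1 to 3 and at 6368 CPM in tumor 2, so lung 2 held 5.23% of the tumor's level. Lalba, alpha-lactalbumin of milk, had 1.93, 127.4 and 2.16 CPM in the lungs and 1572 CPM in tumor 2. Col9a1, a collagen of cartilage, had 1.58, 59.8 and 2.16 CPM in the lungs and 1354 CPM in tumor 2, with 0.733, 0.603 and 1.23 CPM in the BP lungs (scaled over 36 libraries). Sox10, a factor of neural crest and mammary cells, had 0.552, 16.2 and 0.539 CPM in the lungs and 501.5 CPM in tumor 2.

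For Col9a1 and Sox10 the other organs of mouse 2 held less than its lung. The level of Col9a1 was 4.63 CPM in lymph node, 1.56 in spleen, 3.15 in liver and 0.852 in bone marrow of mouse 2. Sox10 was at 7.45, 0.686, 0.547 and 0.328 CPM in the same organs. Csn3 was at 253.8, 274.4 and 422.8 CPM in the 3 lymph nodes. The source of these transcripts in lung 2 was not tested. The fitted differences of Col9a1 and Col9a2 between lung and the mean of the organs, 0.70 and 1.19 on the log2 scale, turned negative without lung 2. Sox9, which was not called with it (adjusted p = 0.812 by edgeR), was called lower without it (adjusted p = 0.00564 by edgeR).

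**Figure D4:**
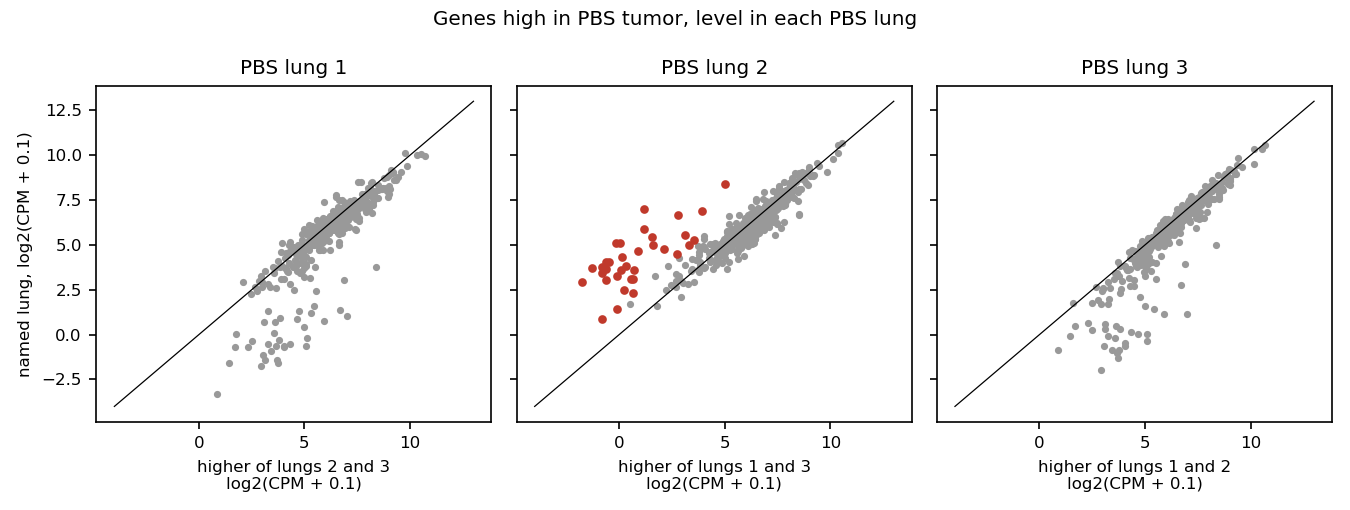
Level in PBS lung 1, 2 and 3 (vertical axes) of 437 genes high in PBS tumor, against the higher of the other lungs (horizontal axes), both as log2 of CPM plus a small constant. Red points are at least 3 times both other lungs, which holds for 34 genes in lung 2 and for 0 in lungs 1 and 3, and the line marks equal levels.

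Mammary genes did not mark lung (0 of 23, median 1.29), though 12 were higher in lung than the mean of the organs. These included keratins and claudins that lung epithelium shares, such as Krt8 with 195.8, 361.2 and 225.0 CPM in lung and 1433 CPM in tumor 3, and Krt7 with 388.6, 640.8 and 499.4 CPM in lung and up to 430.3 CPM in tumor 1.

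Transcripts of lung were found at a trace in other organs. For the 14 genes with the widest gap, the median level in a library of another organ was 0 to 0.388% of the lung mean, and single genes reached at most 0.646%. These genes were chosen for that gap in the same libraries, so the choice itself limits how high these levels can be. Liver 3 was highest, at 0.388%, with 137.1 CPM of Scgb1a1 and 51.7 CPM of Sftpc. Tumor, spleen and bone marrow of mouse 1 were lowest, with 9 to 11 of the 14 genes listed at 0, while lymph node and liver of that mouse held 0.236 and 0.14%. Since the trace differs between libraries of 1 organ, a fold of lung over another organ for these genes depends on it. Its source was not tested.

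**Figure D5:**
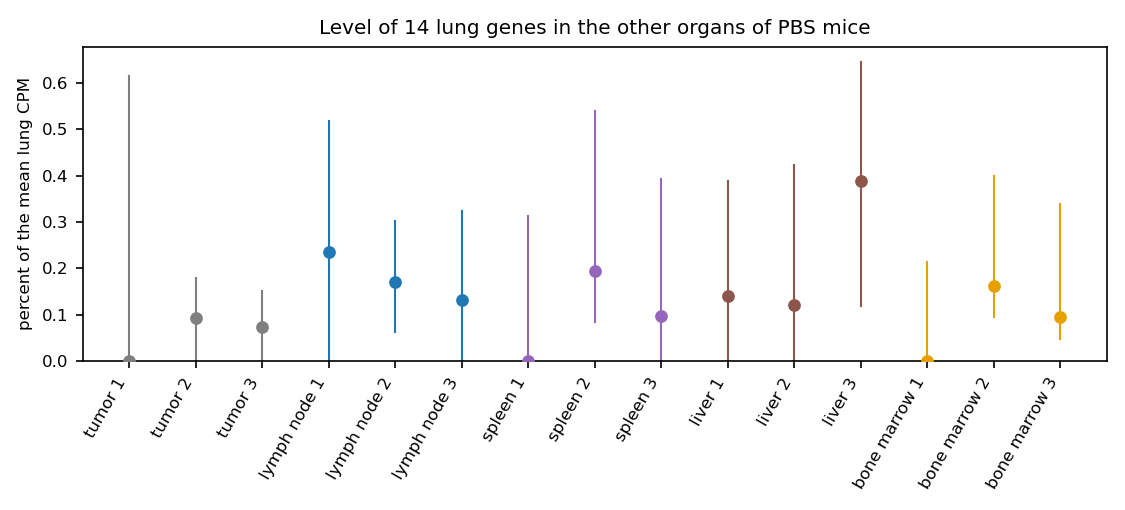
Level of the 14 genes with the widest gap in each of the 15 other PBS libraries, as percent of their mean CPM in PBS lung, with the median as a point and the lowest and highest gene as the ends of a line. Liver 3 has the highest median (0.388%), and tumor 1, spleen 1 and bone marrow 1 have a median of 0.

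Lungs of BP mice were compared with the organs of their own mice in the same way. In the 3 BP mice, fitted separately with their own organs, 1508 of 17743 genes (8.5%) were higher in lung than in each organ, and 29.7% were higher than the mean. They included 1165 of the 1375 genes of PBS mice, which is 84.7% of the PBS list and 77.3% of the BP list, and all 1351 that could be tested had a higher level than the mean of the BP organs. All 14 genes with the widest gap were called again. Sftpc stood at 24110, 23350 and 14800 CPM and Scgb1a1 at 31980, 19220 and 28220 CPM in BP lungs 1 to 3, which overlaps the PBS lungs. Of the 376 genes lower than in each organ, 250 were called in BP mice (66.5%, and 52.9% of the 473, or 2.67% of all genes, in BP mice). Krt79, Abcg1 and Clec9a, which missed the call in PBS mice, were called in BP mice.

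Whether the difference between lung and the other organs itself differed between BP and PBS mice was tested as an interaction over 36 libraries. By edgeR 0 of 18613 genes passed the threshold, 216 (1.16%) had an unadjusted p under 0.05, and DESeq2 called 2. Such a result does not show that the lungs were alike.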

How the data were processed

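RNA of whole organs was sequenced, and the deposited table holds RSEM expected counts for 55487 genes. Per the submitters' processing notes, the authors' tools included STAR 2.7.9a and RSEM 1.3.1 with build mm10, besides cutadapt 3.5 and FastQC 0.11.9, and whether strand was used is not given in the sources used here. Expected counts share reads between near-identical genes by estimate. They were rounded, since 4.64 to 7.92% of values were not whole over the 49 libraries.

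Genes were filtered with filterByExpr at a minimum count of 10, leaving 17696, and scaled by TMM to CPM. edgeR 4.0.16 in R 4.3.3 was fitted with organ and mouse over 18 libraries (quasi-likelihood F-test, Benjamini-Hochberg adjustment over all genes, threshold 0.05). Lung was contrasted with the mean of 5 organs and with each. The mouse pairs the organs, per the labels' replicate numbers. Deviations of lung and other organs of the same mouse correlated between -0.051 and 0.466. Those of different mice correlated between -0.376 and 0.271, so the ranges overlapped. BP mice were fitted alike, and an interaction was fitted over 36 bulk libraries. Scripts were tested on simulated data. No pair of replicates agreed within sampling noise.

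Genes were named by the widest gap to the next organ (14 higher and 6 lower, at a mean of at least 10 CPM, leaving out unnamed gene models), by level and gap within each list, by calls where 3 or fewer members differed in call, and by level per exon length (5 genes). Members and lists were chosen with earlier results of these data known. Annotation was GENCODE M21 (55227 genes matched) and promoters were from RefSeq GRCm38.p6. Alternatives were DESeq2 1.42.0, RLE size factors, no filter, no mouse block, a test against a log2 difference of 1, a shared spread, and leaving out each library or mouse. Nanoparticle-associated cells were not analysed here. A gene this rule names is not reported here.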

Additional observations from a re-analysis of the deposited data

How the results depend on the processing

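Tested against a log2 difference of 1, 3955 genes differed from the mean of the organs (3156 higher, 799 lower), 860 were higher and 13 lower than each organ, and 4255, 3412, 4925, 6670 and 6488 differed from tumor, lymph node, spleen, liver and bone marrow. With no filter on low counts 230 genes were lower than each organ. DESeq2 called 2 genes in the interaction (edgeR 0). Leaving out 1 library or mouse gave 6505 to 10324 genes against the mean (4092 to 5482 higher, 2413 to 4842 lower), 847 to 1547 higher and 70 to 528 lower than each organ, and 5393 to 9225, 4279 to 8667, 6013 to 10655, 7971 to 11582 and 8188 to 11765 against tumor, lymph node, spleen, liver and bone marrow. In BP mice only whole mice were left out, not single libraries, and this gave 1124 to 1146 higher than each organ. The fitted differences of Col9a1 and Col9a2 were -2.24 and -1.78 without mouse 2, and -2.27 and -1.82 without lung 2, and the cause was not tested. Over all left-out libraries and mice they ran up to 1.57 for Col9a1 and 2.06 for Col9a2. Fits without the replicate block gave 1338 genes higher than each organ, 1318 of them shared, RLE size factors gave 1432 and DESeq2 1371 (1231 shared). The share of higher genes among calls against the mean was 56.1%, and 79.8% when tested against a log2 difference of 1. For each gene that the naming rule gave, the difference to the mean of the organs was recomputed under each alternative. Of these pairs of gene and alternative 4529 stayed on the same side of the threshold, 154 lost the call and 38 gained it. In 4 the direction reversed with a call in at least 1 of the fits. A change of direction where neither fit was called is counted among the 4529. Sox9 is such a case, at -0.24 in the main fit and 0.46 without lung 1. The pairs do not cover the calls of single genes against each organ. The p-values rest on the spread left after organ and mouse are fitted, over all organs together. With 3 mice, small differences and genes near 3 counts are least certain.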
